A study of Mus musculus with 4 samples.

Results

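The genes described here are the colony-stimulating factors, their receptors and the related receptor kinase gene Flt3, in microglia grown in mouse primary glial culture. They were taken by symbol from a fixed list of 10 genes, 4 encoding ligands (Csf1, Il34, Csf2, Csf3) and 6 encoding receptor chains (Csf1r, Csf2ra, Csf2rb, Csf2rb2, Csf3r, Flt3), and all 10 were found among the 56832 genes listed. RNA sequencing covered 4 libraries of a single group: sorted microglia from C57BL/6 mice, labelled female, with no treatment, time point or age named in the labels. The cells were detached with trypsin, stained, sorted by flow cytometry and lysed, per the labels' protocols; the sources used here do not give the antibodies and gates. The wider study set such cells beside blood progenitors cultured alone or with glia, whose libraries were not analysed here, and the comparisons below are therefore between genes and between libraries of 1 group.

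Microglia depend on signalling through CSF1R, a receptor tyrosine kinase with a pair of unrelated ligands, CSF1 and interleukin-34. CSF1 is made by astrocytes, microglia and mesenchymal cells, and interleukin-34 in the brain mainly by neurons. GM-CSF, the product of Csf2, signals through a specific alpha chain (Csf2ra) and the common beta chain (Csf2rb), which interleukin-3 and interleukin-5 also use; mice carry a second beta chain gene, Csf2rb2, whose product serves interleukin-3. G-CSF, from Csf3, acts through Csf3r, best known in neutrophils, and FLT3 is a kinase of early blood progenitors and dendritic cells.

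Replicates 1 to 4 had totals of 27012285, 23436924, 23212183 and 28469813 counts on genes. Levels are given as CPM (counts relative to the library's total) or as TPM, which also divides by gene length. Where a library shows 0 counts, up to 3 remain possible from counting error alone, equal to 0.105 to 0.129 CPM. This limit and the Poisson intervals below cover counting error only, and libraries differed by more than that. Of 8 microglial markers 7 were at 1 CPM or more in every library, with a list median of 834 TPM ± 45.2 (SD, n = 4 here and below); Siglech, at 0.680 ± 0.486, was the exception. Against the label female, the 4 Y-linked genes checked were all present in every library, from 9.48 CPM for Uty to 41.5 CPM for Ddx3y, beside Xist at 253 to 341 CPM. Since this holds for all 4 libraries, no result could be given without such libraries. No pair of libraries agreed within counting noise (chi-square of 5.17 to 13.6 times its degrees of freedom). The labels do not name separate cultures or animals, so each SD and each p-value of spread describes library-to-library spread that may be technical. The p-values for pairs of genes ask only whether the genes of a pair differ in level, and rest on the same libraries.

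The genes split by role. All receptor transcripts except that of Flt3 were abundant and varied little between libraries, whereas of the ligand transcripts Csf1 was at a moderate level, Il34 was scarce, and Csf2 and Csf3 were not detected. Of the 10, 6 reached 1 CPM in every library, 5 receptor genes and the ligand gene Csf1. Among all listed genes 20.6% reached that level, and among protein-coding genes 51.8%. Il34 and Flt3 had a few counts, and Csf2 and Csf3 had 0 counts in every library. In bulk RNA, fewer cells of a type and less RNA per cell cannot be told apart.

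**Figure D1:**
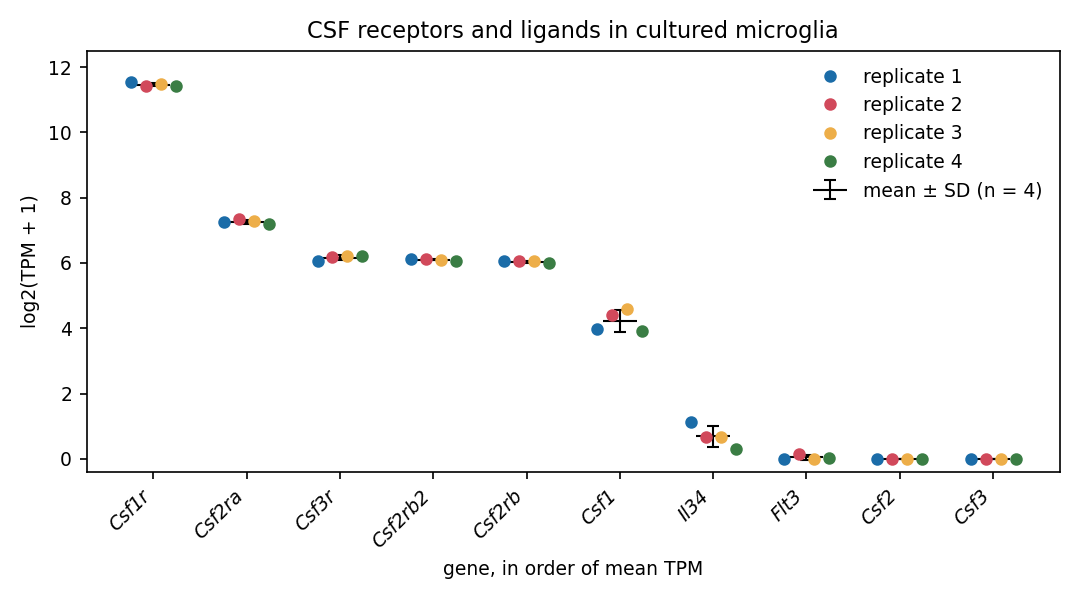
Level of each gene as log2(TPM + 1) in each of the 4 libraries (coloured points) with the mean and SD (black); genes are ordered by mean TPM. Csf1r sits alone at the top, the other 4 abundant receptor genes lie together, Csf1 and Il34 both show visible spread, and Csf2 and Csf3 lie at 0.

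Csf1r, the CSF1 and interleukin-34 receptor gene, was read 135220, 109964, 112320 and 134810 times in replicates 1 to 4. This corresponded to 5006, 4692, 4839 and 4735 CPM, highest in replicate 1 and lowest in replicate 2, the highest being 1.07 times the lowest. Per length, Csf1r was at 2829.9 TPM ± 108, place 29 of 21190 protein-coding genes. It took 0.482% ± 0.0140 of all gene counts. In the annotation used for lengths, 15.1% of its exon bases are shared with Hmgxb3 on the opposite strand; Hmgxb3 had 921 to 1170 counts. Its neighbour on the other side, the related kinase gene Pdgfrb, a marker of mural cells, was at 2.33 TPM ± 0.289.

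Csf1 had the highest level of the 4 ligand transcripts. Its counts were 619, 739, 844 and 626 in replicates 1 to 4, which is 22.9, 31.5, 36.4 and 22.0 CPM. Replicates 2 and 3 were higher than replicates 1 and 4; the exact Poisson 95% interval of the highest, replicate 3, was 33.9 to 38.9 CPM and that of the lowest, replicate 4, was 20.3 to 23.8 CPM. The test of the spread between libraries is given below. The highest library was 1.65 times the lowest, and the mean was 18.1 TPM ± 4.38.

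Il34 was read 18, 8, 8 and 4 times, 0.666 CPM in replicate 1 and 0.141 to 0.345 CPM in the others. The exact Poisson 95% interval of replicate 1 was 0.395 to 1.05 CPM. Il34 did not pass the abundance filter of the spread test, and without that filter its spread was not called (edgeR, unadjusted p = 0.46, adjusted p = 0.98). The mean was 0.649 TPM ± 0.385. In all 4 libraries Csf1 lay above Il34, with a mean difference in log2(TPM + 1) of 3.53 ± 0.46 (exact sign-flip permutation, two-sided, p = 0.13; no smaller p is possible with 4 libraries, and Benjamini-Hochberg adjustment over the 6 pairs of genes compared left it at 0.13). Because Il34 is close to 0, that size depends on the pseudocount, and it was 1.39 with a pseudocount of 10. Neuronal markers were also scarce: Snap25 had 0 counts, and the summed level of the 6 markers was 13.2 to 17.8 CPM. Most of that sum was Map2, at 9.51 CPM in replicate 1 and 12.3 to 13.9 CPM in the others. Tubb3 alone ran the other way, with 51 counts in replicate 1, where Il34 was also highest, and 3, 5 and 2 in the others. Stmn2, like Map2, was lowest in replicate 1, at 1.70 CPM against 1.75 to 4.01 CPM in the others. Syt1 was highest in replicate 2. The part of neuronal RNA in the Il34 counts was not tested.

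Receptor exceeded ligand by a wide margin. Csf1r was higher than Csf1 in 4 of 4 libraries, with a mean difference in log2(TPM + 1) of 7.24 ± 0.35 (exact sign-flip permutation p = 0.13). The TPM ratio of Csf1r to Csf1 ran from 122 to 199.8, with a mean of 164 ± 40.6. The ligand varied more than the receptor: the coefficient of variation was 24.2% for Csf1 and 3.82% for Csf1r.

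Whether any of these genes differed between libraries beyond genes of like abundance was tested in a model of all genes. Of the 6 past the abundance filter, 0 were called (edgeR deviance test, Benjamini-Hochberg adjusted p under 0.05), beside 1.11% of the 12879 genes tested. DESeq2 also marked 0 of the 6. At an unadjusted p under 0.05 there was 1 of the 6, Csf1, beside 6.79% of all genes tested; its edgeR adjusted p = 0.070. The adjusted p of Csf1 ran from 0.047 with library totals in place of TMM scaling to 0.78 without replicate 3, and it was 0.42 without replicate 4. Csf1 had an SD of 0.34 on the log2 CPM scale, against 0.024 (Csf2rb2) to 0.067 (Csf3r) for the 5 receptor genes. The median over all genes tested, not matched for abundance, was 0.13. The 3 genes whose pattern over the 4 libraries lay nearest to that of Csf1 were Cyp4f16, Cttn and Heg1, with a root mean square difference of 0.069, 0.070 and 0.073 on the log2 CPM scale. Of 8323 genes compared, 15 lay within 0.1 of Csf1. For Csf1r the nearest were Arl13b, Ubap1 and Rap1gds1, but 4818 genes lay within 0.1 of it, so its flat pattern was a common one.

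Some markers of other glial-culture cells were, like Csf1, highest in replicate 3, and others were not. The summed level of 8 astrocyte markers was 277, 434, 471 and 379.9 CPM in replicates 1 to 4, and that of 8 mural and fibroblast markers was 82.2, 102, 111 and 80.1 CPM. Both sums were highest in replicate 3 and next highest in replicate 2, as Csf1 was, but their members differed. All 8 astrocyte markers were lowest in replicate 1, and 4 were highest in replicate 3 (Slc1a3, Aldh1l1, Gja1 and Clu), while Gfap and Slc1a2 were highest in replicate 2 and Aqp4 and S100b in replicate 4. The mural and fibroblast sum was mostly Acta2, a contractile actin, at 42.8, 57.2, 73.5 and 45.7 CPM, and Tagln, at 12.7, 17.6, 22.2 and 14.9 CPM. The matrix genes of fibroblasts in that list, Col1a1, Col1a2, Col3a1 and Dcn, were instead all lowest in replicate 3, Col1a1 being at 6.29, 7.04, 2.33 and 4.18 CPM. Of the astrocyte markers tested 3 of 7 were called (Gfap, Slc1a3 and Clu), and of the mural and fibroblast markers 1 of 7 (Acta2). The defining markers were detected at unlike levels: Gfap was at 50.3 TPM ± 14.2, Aqp4 at 18.5 ± 1.51, Acta2 at 84.5 ± 21.2 and Col1a1 at 2.57 ± 1.11. Clu was at 210 ± 44.9. Gfap, Acta2 and Clu thus lay above the 18.1 TPM of Csf1, Aqp4 was near it and Col1a1 lay below it. Endothelial markers summed to 81.8 to 95.9 CPM, with Tek at 0 counts; most of this was Flt1, at 67.9 to 77.0 CPM, whereas Kdr was at 11.7, 17.1, 22.0 and 16.2 CPM, highest in replicate 3 (edgeR unadjusted p = 0.0062, adjusted p = 0.24). Oligodendrocyte markers were at 221 to 236 CPM, with Mog at 0 counts. Immediate-early genes, induced quickly by stimulation and handling, were instead highest in replicate 1, at 1496 CPM in sum against 827 to 1066 CPM, with 9 of 11 called (Egr1, Egr2, Fos, Fosb, Jun, Junb, Ier2, Ier3 and Dusp1). The part of other cells' RNA in the Csf1 level was not tested.

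**Figure D2:**
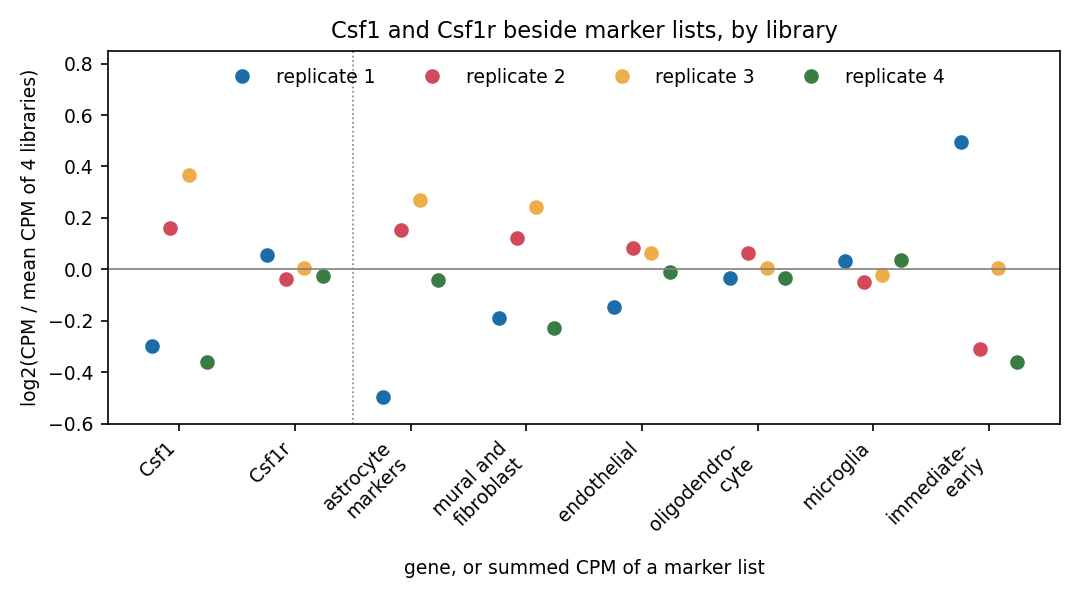
CPM in each library relative to the mean of the 4 libraries, on a log2 scale, for Csf1, Csf1r and the summed CPM of 6 gene lists; each point is 1 library. Csf1 and the sums of the astrocyte list and of the mural and fibroblast list are highest in replicate 3 (4 matrix genes inside the latter are lowest there), while Csf1r and the microglial list stay close to 0 and the immediate-early list is highest in replicate 1.

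The GM-CSF receptor was represented by both of its chains. Csf2ra, the ligand-specific alpha chain, had 3414, 3198, 3051 and 3505 counts, or 151, 161, 155 and 144 TPM in replicates 1 to 4, a mean of 153 ± 6.74. Csf2rb, the common beta chain, had 3740, 3313, 3274 and 3846 counts, and Csf2rb2, the interleukin-3 beta chain, had 2554, 2250, 2203 and 2649. No library stood apart for any of the 3 genes, the highest CPM being at most 1.11 times the lowest. In TPM the common beta chain was at 64.8 ± 1.505 and the interleukin-3 beta chain at 67.7 ± 1.15. Csf2rb lay below Csf2ra, a mean difference in log2(TPM + 1) of -1.22 ± 0.039, negative in 4 of 4 libraries (exact sign-flip permutation p = 0.13). Counts without length put it slightly above, by 0.10. The count ratio of Csf2rb to Csf2rb2 was nearly constant, 1.47 ± 0.014, between 1.45 and 1.49.

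Which beta chain gene was higher depended on the gene length used. Csf2rb lay below Csf2rb2 with merged exons, a mean difference in log2(TPM + 1) of -0.063 ± 0.014, negative in 4 of 4 libraries (exact sign-flip permutation p = 0.13). With the longest single transcript the difference was 0.50 and without length it was 0.55. Merged exons of Csf2rb add up to 7277 bases, against 4900 for its longest transcript; for Csf2rb2 both lengths are 4740 bases. With longest transcripts, Csf2rb was at 72.8 TPM ± 1.70 and Csf2rb2 at 51.3 ± 0.894. The order of these genes was therefore not settled by the counts.

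**Figure D3:**
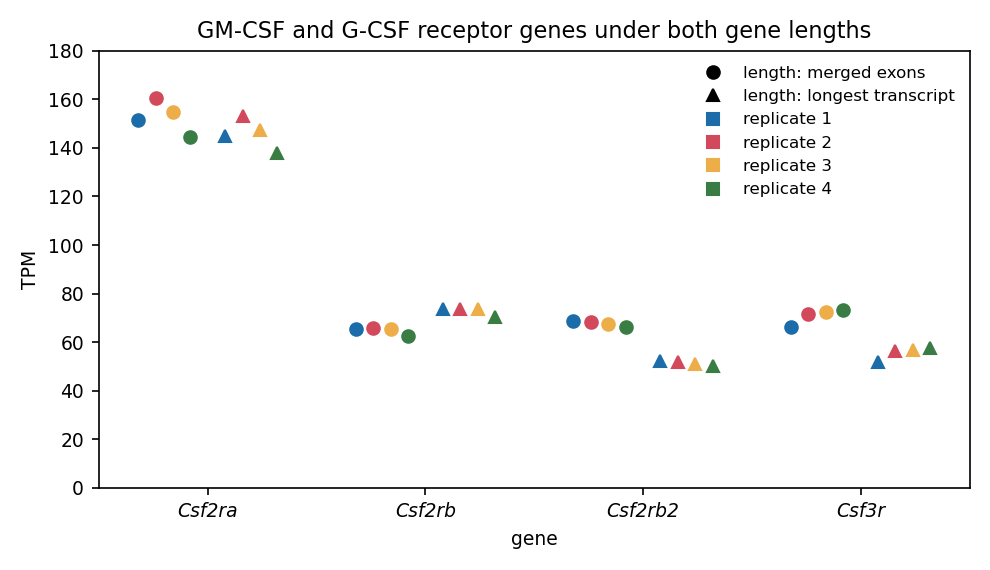
TPM of the GM-CSF and G-CSF receptor genes in each of the 4 libraries (colours), with gene length from merged exons (circles) or from the longest transcript (triangles). Csf2ra is highest under both lengths, whereas the order of Csf2rb and Csf2rb2 turns.

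Csf2rb and Csf2rb2 are neighbouring genes in the RefSeq annotation and near-copies, so reads could be shared between them. Their coding sequences, 2691 and 2637 bases in GENCODE M21, matched at 95.2% of 2631 aligned positions, with 126 mismatches and a longest identical run of 242 bases. Of all stretches of 100 bases in the longest-coding transcript of Csf2rb, 6.96% also occur in Csf2rb2, and 18.4% of stretches of 50 bases do; for 150 bases it is 3.47%. The sources used here do not give the read length. The coding stretches of 60 bases that differ most, with 13 mismatches in capitals, show where a read can be assigned to 1 gene (Csf2rb from coding base 304 to 363, Csf2rb2 from 307 to 366, counted from the start codon).
Csf2rb: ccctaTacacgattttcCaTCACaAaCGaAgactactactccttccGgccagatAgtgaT
Csf2rb2: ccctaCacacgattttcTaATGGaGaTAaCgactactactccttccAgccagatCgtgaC
The stretch directly upstream is identical in both genes (Csf2rb from coding base 245 to 304, Csf2rb2 from 248 to 307), and a read inside it could come from either.
Both: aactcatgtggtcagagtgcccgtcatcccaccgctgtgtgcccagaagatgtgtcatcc

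The ligand of this receptor was not detected. Csf2, the GM-CSF gene, had 0 counts throughout; the 3 counts that remain possible would equal at most 0.546 TPM in a library. Its neighbour Il3, the interleukin-3 gene, also had 0 counts. Il5 and Il5ra, the interleukin-5 ligand and receptor chain, were at 0.0577 TPM ± 0.115 and 0.0202 ± 0.0403, while Il3ra, the interleukin-3 alpha chain that pairs with the beta chains, was at 7.08 ± 0.660. Of 8 genes known to respond to GM-CSF in macrophages and dendritic cells, 3 were at 1 CPM or more in every library. Pparg, a nuclear receptor, was at 5.46 ± 1.24, the integrin gene Itgax at 1.99 ± 0.215 and the transcription factor gene Irf4 at 1.90 ± 0.240. Of the class II chains, H2-Ab1 was at 1.51 ± 1.33, with 42, 55, 3 and 15 counts in replicates 1 to 4. H2-Aa was at 0.866 ± 1.02, with 28, 60, 0 and 8 counts. Neither class II gene passed the abundance filter of the spread test. The chemokine genes Ccl22 and Ccl17 were at 0.270 ± 0.203 and 0.115 ± 0.230, and Ccr7 had 0 counts. Of the 3 that were tested 0 were called (edgeR; 0 also at an unadjusted p under 0.05).

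Csf3, the G-CSF gene, also had 0 counts in every library, where 3 counts would equal at most 0.309 TPM. Transcripts of Csf2 and Csf3 are textbook examples of messages with AU-rich elements, 3' UTR sites bound by proteins that speed decay. In GENCODE M21 the nonamer ATTTATTTA, searched on the transcript strand only, occurs 5 times (overlapping) in the 317-base 3' UTR of Csf2 and in none of the other 9 genes. Of 20286 genes 5.58% have it, and of the 1822 genes whose 3' UTR is within 20% of that length 1.43% do. The pentamer ATTTA occurs 6 times in the 669-base 3' UTR of Csf3, at least as often in 1.62% of 2284 genes of like 3' UTR length. It occurs 4 times in Csf1, as often or more in 49.1% of its like-length genes. The sites are shown with the motif in capitals, the nonamer for Csf2 (3' UTR bases 230 to 259) and the pentamer for Csf3 (3' UTR bases 24 to 53).
Csf2: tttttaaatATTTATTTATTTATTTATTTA
Csf3: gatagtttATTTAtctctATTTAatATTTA
Genes of proteins that act on message decay or stability were present, all 8 at 1 CPM or more in every library. The decay factors Zfp36l2, Zfp36 and Zfp36l1 were at 692 TPM ± 66.4, 269.7 ± 88.4 and 257 ± 17.5, and Khsrp at 121 ± 5.31. The stabilising factor gene Elavl1 (24.4 ± 0.560) and the RNase gene Zc3h12a (22.4 ± 2.28) were lowest. Zfp36 was the 1 of 8 called (edgeR adjusted p = 1.3e-11): replicate 1 had 399 CPM and the others 209, 276 and 218 CPM, so it was high in the library where immediate-early genes were high. Decay of the Csf2 and Csf3 messages was not measured.

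Csf3r, the G-CSF receptor gene, was detected without its ligand. It had 1875, 1795, 1799 and 2231 counts, or 66.2, 71.7, 72.5 and 73.1 TPM in replicates 1 to 4, a mean of 70.9 ± 3.20. Replicate 1 was lowest, and the highest CPM was 1.13 times the lowest. Neutrophils are the best known source of this transcript, so their markers were read beside it. Of 8, 7 had 0 counts in every library (Ly6g, Mpo, Elane, S100a9, Camp, Ngp and Retnlg), and S100a8 was at 0.381 TPM ± 0.367. The summed level of these markers was 0 to 0.171 CPM, against 69.4 to 78.4 CPM for Csf3r. Csf1r was higher than Csf3r, with a mean difference in log2(TPM + 1) of 5.30 ± 0.12, and higher than Csf2ra, with 4.203 ± 0.088, both in 4 of 4 libraries (exact sign-flip permutation p = 0.13).

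Flt3, the progenitor and dendritic cell kinase gene, had 0, 5, 0 and 1 counts in replicates 1 to 4, a mean of 0.0340 TPM ± 0.0559. The 5 counts of replicate 2 have an exact Poisson 95% interval of 0.0693 to 0.498 CPM, which overlaps what a count of 0 allows. Its ligand gene Flt3l was at 2.72 ± 0.590. Other markers of progenitors and dendritic cells were mostly low: Kit, the receptor of stem cell factor, was at 0.619 ± 0.211, Zbtb46 at 1.93 ± 0.180, Clec9a at 0.164 ± 0.230, Xcr1 at 0.0337 ± 0.0502 and Hoxa9 at 0 counts. Cd34, which endothelial cells and other cells also express, was at 50.4 ± 4.85. Among monocyte markers Ly6c2 and Plac8 had 0 counts, Ccr2 was at 0.997 ± 0.272 and F13a1 at 0.284 ± 0.111. Lymphocyte markers summed to 0.0702 to 0.296 CPM, with Nkg7 at 0 counts.

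In order of mean TPM the genes ran Csf1r, Csf2ra, Csf3r, Csf2rb2, Csf2rb, Csf1, Il34, Flt3, and then Csf2 and Csf3 at 0. Csf3r and Csf2rb2 were not separated, since their ranges overlapped and Csf3r was higher in 3 of 4 libraries. Flt3 was above 0 in 2 of 4 libraries and so was not separated from the undetected genes. With longest transcripts the order among the middle receptor genes changed to Csf2rb, Csf3r (55.6 TPM ± 2.45) and Csf2rb2.

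The genes around CSF1R were present at high levels. Transcription factors known to act on the Csf1r locus, or to shape macrophage identity with it, were all detected, with a list median of 222 TPM ± 15.1. Spi1, encoding PU.1, was at 610.5 ± 16.7, Cebpa at 447 ± 17.7 and Irf8 at 305 ± 8.77; Ets2 (86.7 ± 5.98) and Runx1 (50.6 ± 2.78) were lowest. Of these 9 genes 0 were called by edgeR, with 0 at an unadjusted p under 0.05.

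Adaptors, kinases and brakes downstream of the receptor had a list median of 94.4 TPM ± 3.79 over 30 genes. Tyrobp, the adaptor DAP12, was far above the rest at 4672 ± 360.1. The phosphatase Ptpn6 (SHP-1) was at 789 ± 21.01, the kinase Mapk3 at 485 ± 18.1 and the lipid phosphatase Inpp5d (SHIP1) at 433 ± 14.7. At the low end were the ubiquitin ligase gene Cblb, at 4.42 ± 0.0995, and the Src-family kinase Fgr, at 0.835 ± 0.255; its relative Lyn was at 364 ± 25.6. All 30 were tested and 0 were called (edgeR; 0 at an unadjusted p under 0.05). Their median SD was 0.067 on the log2 CPM scale, against 0.13 over all genes tested, which were not matched for abundance.

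CSF1R is cut from the cell surface by ADAM17 and its remnant by gamma-secretase. The 11 genes of that list were all at 1 CPM or more in every library, with a median of 64.9 TPM ± 5.28. The gamma-secretase subunits Ncstn (205 ± 5.98), Psenen (192 ± 5.45) and Aph1a (129.6 ± 8.01) and the protease Adam17 (135 ± 6.96) were highest, and Aph1c (12.6 ± 1.57) and Aph1b (11.8 ± 1.60), which are close copies and may share reads, were lowest. Of the other proteins reported to bind interleukin-34, Trem2 was at 778 ± 13.4, Sdc1 at 1.25 ± 0.199 and Ptprz1, a phosphatase of astrocytes and glial precursors, at 4.94 ± 1.24. Ptprz1 was lowest in replicate 1 and highest in replicate 3, as the astrocyte sum was. In these lists 0 genes were called by edgeR; Timp3, an inhibitor of ADAM17, and Ptprz1 were at an unadjusted p of 0.0014 and 0.0018.

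The JAK-STAT genes that carry GM-CSF and G-CSF signals had a median of 27.6 TPM ± 3.36. Jak1 was at 144 ± 8.37, Stat3 at 74.0 ± 2.30, Stat5b at 56.4 ± 2.98 and Tyk2 at 49.5 ± 2.44. The feedback genes Cish (0.280 ± 0.133) and Socs2 (0.250 ± 0.0870), which cytokine signalling through STAT5 induces, were lowest. Of 12 tested 0 were called by edgeR, with 1, Jak2, at an unadjusted p of 0.022. Among related kinases and their ligands, Pdgfb was at 257 ± 2.39, Pdgfa at 40.0 ± 3.34, Kitl at 5.88 ± 0.641 and Pdgfra at 0.0855 ± 0.0562, and of 6 tested 0 were called (0 at an unadjusted p under 0.05). Over the 9 lists of pathway genes together, 1 of 83 genes tested was called, a share near the 1.11% of all genes tested.

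**Figure D4:**
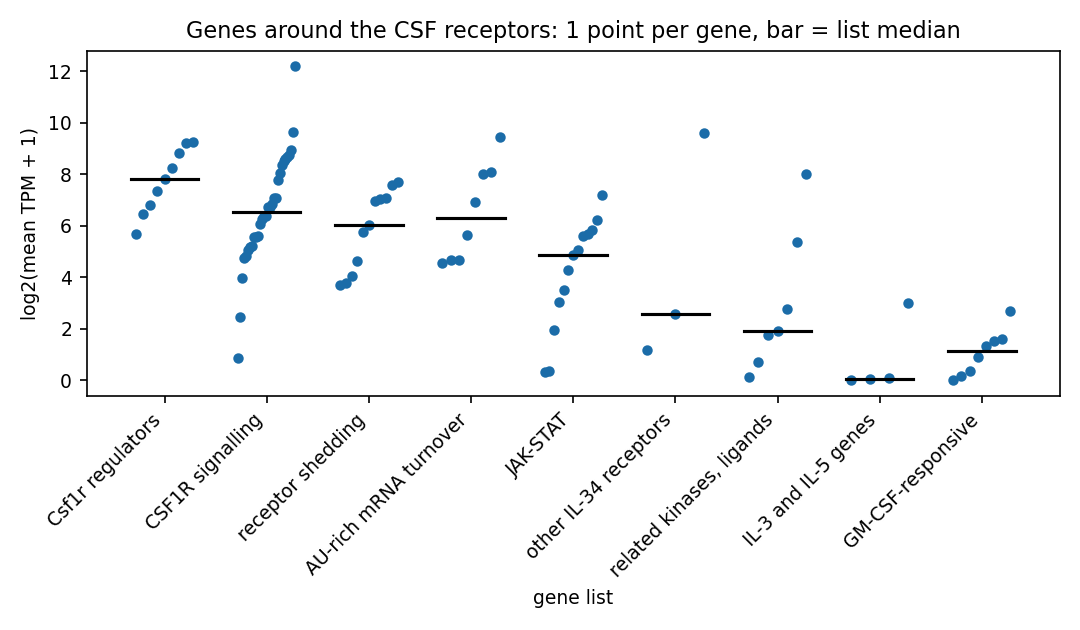
Mean level over the 4 libraries, as log2(mean TPM + 1), of every gene in the 9 lists around the CSF receptors; each point is 1 gene and the bar is the list's median. The Csf1r regulators and signalling genes lie highest, led by Tyrobp, and the lists of interleukin-3 and interleukin-5 genes and of GM-CSF-responsive genes lie near 0.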

How the data were processed

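The deposited files hold raw counts of reads by gene symbol, 1 library each. The submitters' processing notes name STAR 2.7.10a, HTSeq 0.11.2 and SAMtools 1.16.1, with build mm39 (GRCm39). The sources used here do not give the annotation release, strand setting, overlap mode or read length. Reads of overlapping, antisense or near-identical genes may not have been told apart. The 5 summary lines, 11.8% ± 0.159 of reads listed, were left out.

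TPM was computed here from the counts and merged exon lengths of GENCODE M21 (GRCm38; lengths and transcript sequences only, no coordinates), which matched 89.1% of symbols, all 10 genes described and 98.8% of counts. Neighbouring genes came from RefSeq GRCm38.p6. Spread between libraries was tested over all genes in edgeR 4.0.16 (R 4.3.3): 1 mean per gene, TMM, filterByExpr, trended dispersion, deviance against a chi-square with 3 degrees of freedom, Benjamini-Hochberg adjusted p under 0.05. This was tested on simulated data. DESeq2 1.42.0 dispersion outliers were an alternative. The 6 pairs of genes were compared per library on log2(TPM + 1) with an exact sign-flip test. Coding sequences were aligned with Biopython 1.88. Alternatives were scaling, filter, dispersion, pseudocount, gene length and leaving out replicates. Named genes were the 10 members, the 4 highest and 2 lowest of each list, list genes at 0 counts or called, and the 3 genes nearest in pattern to Csf1r and Csf1; defining markers, Lyn and the sex-linked and neighbouring genes were named beside them. Single markers set beside Csf1 and Il34 for their order over the libraries were chosen after their values were seen. Some genes that this rule takes are not reported here. The members, lists and pairs were chosen with earlier results of these data known.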

Additional observations from a re-analysis of the deposited data

Results flagged for a closer look

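Flt3 in replicate 2, at 0.213 CPM, stood apart from the other libraries, which had 0, 0 and 1 counts: the gap to the nearest library was 0.835 of the whole range, above Dixon's critical value for 4 libraries. The value rests on 5 reads. Among 14 sets of values looked at in this way it was the only 1. Chance flags about 1 in 20 sets of continuous, normally distributed values. Its rate for low counts with ties at 0, as for Flt3, was not tested.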

How the results depend on the processing

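Of the 6 differences between genes, 4 kept their direction under every alternative that gave a value. Csf2rb minus Csf2ra turned to 0.10 without gene length, and Csf2rb minus Csf2rb2 turned to 0.50 with longest transcripts and 0.55 without length; these alternatives change the lengths alone. Csf1 minus Il34 could not be given with the filter of 1 CPM, which removes Il34. No pair could pass 0.05, so the alternatives say nothing about significance. Of the 6 genes past the abundance filter, 0 were called by the spread test in all alternatives but 1: with library totals only, 1 gene (Csf1) was called. Without the filter 8 genes were tested, Il34 and Flt3 among them, and 0 were called. Csf2 and Csf3, at 0 counts, were never tested. Over all genes 143 were called, 532 with a common dispersion, 69 by DESeq2 and 47 to 118 when 1 replicate was left out; the cause was not tested. No paired analysis was possible because there is only 1 group. Depth limits Il34, which had 4 to 18 counts, and Flt3, Csf2 and Csf3. For Flt3, Csf2 and Csf3 a library with 0 counts still allows a level of up to 0.105 to 0.129 CPM.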
